A study of Mus musculus with 6 samples.

Results

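H3K4me3 at 10 genes of the unfolded protein response was described in Lgr5-positive progenitor cells of the newborn mouse cochlea. The genes were taken by name, as protein-coding genes of mm10, and the annotation listed each of the 10 among its 21887 protein-coding genes. H3K4me3 is a histone mark of active and poised promoters, mapped here by chromatin immunoprecipitation and sequencing. The 2 groups were cells exposed to neomycin for 12 h, an aminoglycoside toxic to hair cells, and untreated cells, with 2 H3K4me3 libraries each. Cells of both groups came from C57BL/6 mice carrying the Lgr5-EGFP-creERT2 allele, killed at postnatal day 0 to 3, whose cochleae were cultured with growth factors. They were sorted on the GFP channel, so a library is a pool of the cells in which the Lgr5 locus drives the reporter. Mice were taken for each sample, and the labels do not say further how the 2 replicates of a group relate.

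The libraries differed in ways that touch every result. The lists held 14203 and 11545 peaks with neomycin and 15938 and 10520 without, and gave no totals of reads, which leaves the depth unknown. The shortest peaks were 48 and 110 bp in neomycin replicates 1 and 2, and 187 and 234 bp in untreated replicates 1 and 2, so a peak length is read only relative to its own list. The names of the untreated lists give H3K4me2 where the labels give H3K4me3 and a single antibody, so the mark in those lists is uncertain to that extent. Of 8 supporting and progenitor cell markers, 7 and 8 had a peak at the start site with neomycin and 8 and 8 without. None of 4 macrophage and blood markers had one in any library. Glia markers were marked at 1 and 1 of 3 with neomycin and 2 and 1 of 3 without. Endothelium markers were marked at 1 and 0 of 4 with neomycin and 1 and 0 of 4 without. Mesenchyme markers moved with the groups, with 0 and 0 of 5 marked with neomycin and 3 and 4 of 5 without. Hair cell markers were marked at 2 and 1 of 6 with neomycin and 4 and 1 of 6 without, with Atoh1 in the untreated libraries alone. Spiral ganglion neuron markers were marked at 0 and 2 of 4 with neomycin and 3 and 2 of 4 without. The part of these other cell types in the results below was not tested. In bulk cells, a peak carried by fewer cells and a weaker mark in each cell cannot be told apart.

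The unfolded protein response restores protein folding in the endoplasmic reticulum (ER). Its sensors in the ER membrane are IRE1 (Ern1), PERK (Eif2ak3) and ATF6, which the chaperone BiP (Hspa5) holds inactive until misfolded proteins draw it away. IRE1 splices the mRNA of the transcription factor Xbp1. PERK slows translation by phosphorylating eIF2 alpha, which favours production of ATF4, and ATF4 in turn acts on Ddit3 (CHOP), Trib3 and Ppp1r15a (GADD34).

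Promoter sequences from RefSeq (GRCm38.p6, the assembly of mm10) matched 9 members, all but Atf6. The 250 bases before the start site are shown for 4 of them. Hspa5 and Ddit3 carry a match to the ER stress response element described next, strict or relaxed, Xbp1 had a peak in every library, and Trib3 had a peak in none. Capitals mark that motif, on either strand, and Xbp1 and Trib3 hold none of it here.
Hspa5, chr2:34771840-34772089, plus strand: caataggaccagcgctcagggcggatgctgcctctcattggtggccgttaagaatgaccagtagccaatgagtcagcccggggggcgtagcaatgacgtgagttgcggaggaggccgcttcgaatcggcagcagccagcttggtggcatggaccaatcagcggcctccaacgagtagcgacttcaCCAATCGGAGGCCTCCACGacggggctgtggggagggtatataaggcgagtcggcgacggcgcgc
Ddit3, chr10:127290543-127290792, plus strand: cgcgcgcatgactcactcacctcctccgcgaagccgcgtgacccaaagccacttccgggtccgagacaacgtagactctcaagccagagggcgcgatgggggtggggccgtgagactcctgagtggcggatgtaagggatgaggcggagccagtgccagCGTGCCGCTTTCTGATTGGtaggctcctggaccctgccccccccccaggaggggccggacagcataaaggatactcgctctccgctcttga
Xbp1, chr11:5520391-5520640, plus strand: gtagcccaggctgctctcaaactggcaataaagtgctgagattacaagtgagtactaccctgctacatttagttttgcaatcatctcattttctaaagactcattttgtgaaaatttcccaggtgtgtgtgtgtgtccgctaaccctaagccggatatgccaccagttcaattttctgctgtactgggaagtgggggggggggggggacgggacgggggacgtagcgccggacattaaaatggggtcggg
Trib3, chr2:152344061-152344310, minus strand: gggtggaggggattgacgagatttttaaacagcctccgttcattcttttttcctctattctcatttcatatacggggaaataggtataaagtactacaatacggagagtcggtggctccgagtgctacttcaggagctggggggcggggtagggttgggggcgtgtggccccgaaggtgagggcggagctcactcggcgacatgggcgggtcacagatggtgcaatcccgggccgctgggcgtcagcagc

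Windows of 250 bases before to 50 after the start were searched on both strands. The ER stress response element, CCAAT followed after 9 bases of any kind by CCACG, which ATF6 binds together with NF-Y, matched Hspa5 alone among the 9 members, at -65 to -47 from the start, negative meaning upstream (0.141% of 21263 promoters of protein-coding genes). With the first C of CCACG left free, so that CCAAT is followed after 10 bases by CACG, it also matched Ddit3, on the opposite strand at -91 to -73 (0.282% of promoters). Every match to the stricter form is also one to the freer form, and both contain CCAAT. The CEBP-ATF element TGATGNAA matched Trib3 alone, from 14 to 21 bases after the start (3.6% of promoters). The second form of the ER stress response element, ATTGG followed after 1 base by CCACG, matched no member (0.0517% of promoters), and nor did the unfolded protein response element core TGACGTGG (0.705%). These are matches of letters and not measured binding.

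Over 17492 genes with a strand the same windows held a median of 13 CpG. Those of the members held 10 CpG at Xbp1 and 17 at Eif2ak3, both marked in every library, and 35 at Dnajb9, also marked in every library. Trib3, with no peak in any library, held 21. Over all genes the median was 25 CpG where 4 libraries had a start site peak and 4 where none had. Xbp1 and Eif2ak3 therefore lay below the usual count of fully marked genes (lower quartile 18), and Trib3 well above that of unmarked genes. The other members held 22 CpG at Ddit3 and Atf4, 25 at Hspa5 and Ern1 and 26 at Ppp1r15a. The count of Trib3 was thus close to those of marked members.

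A gene was called marked at its start site when a peak touched the window of 1 kb either side of it. By this rule 4 and 9 of the 10 genes were marked with neomycin, against 7 and 8 in untreated cells. The shares of all protein-coding genes were 32.1% and 31.0% with neomycin and 44.0% and 33.7% without. Neomycin replicate 1 thus had the fewest members marked, although its list was longer than that of neomycin replicate 2. At least 1 library marked 9 of the 10 members (51.7% of all protein-coding genes). Of these 9, 3 were marked in all 4 libraries (28.5% of genes marked somewhere, 14.8% of all), namely Xbp1, Eif2ak3 and Dnajb9. A further 4, Ern1, Atf6, Atf4 and Hspa5, were marked in every library except neomycin replicate 1 (10.3% of genes marked somewhere). Ddit3 was the 1 member marked in both neomycin libraries and neither untreated library (2.65%), and no member had the reverse pattern (8.91%). Presence was not tested per gene, since relabelling 2 against 2 libraries gives no p under 0.33.

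**Figure D1:**
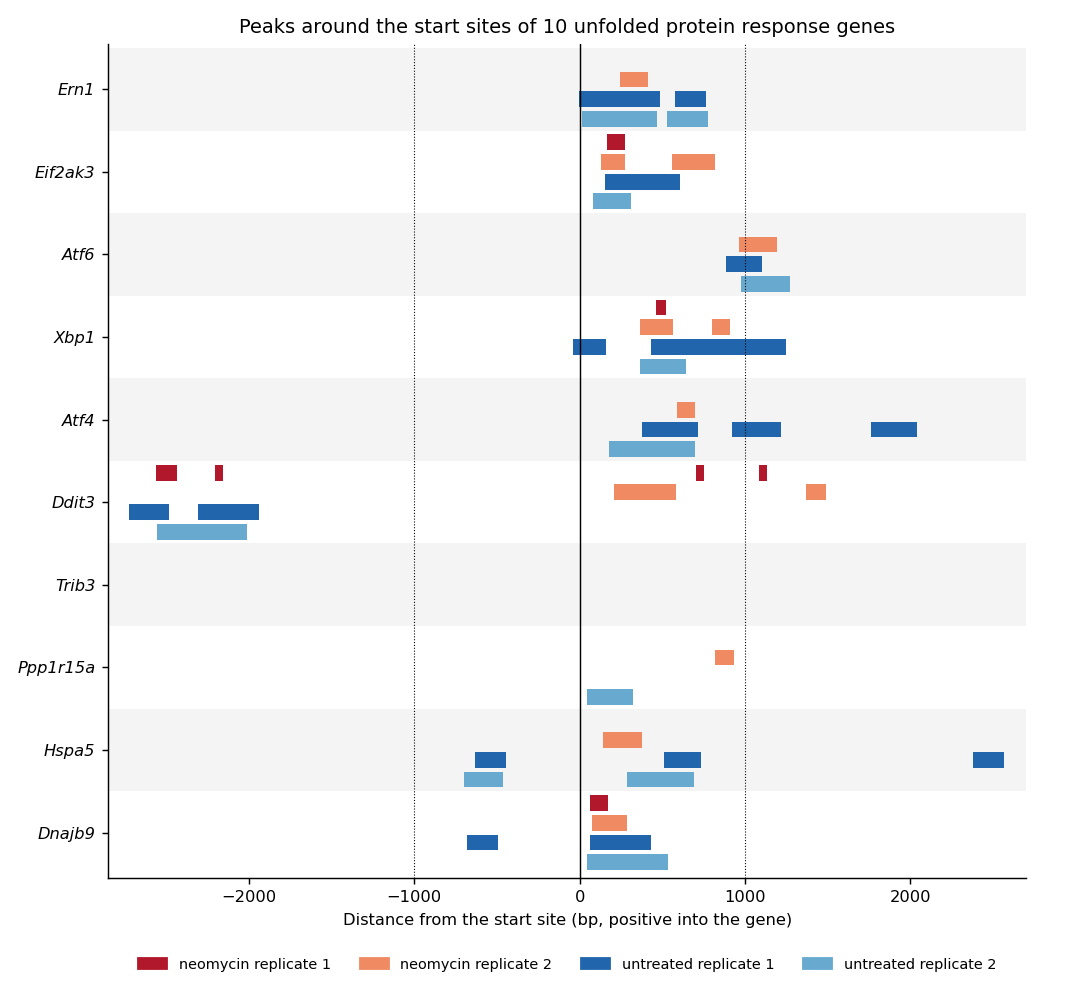
Peaks of each library (bars, neomycin above untreated) by distance in bp from the start site of the 10 genes; dotted lines mark 1 kb either side. Ddit3 has start site peaks in the neomycin libraries and untreated peaks about 2 kb upstream; Trib3 has none; those of Atf6 lie at the edge of the window.

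Ern1, Atf6, Atf4 and Hspa5 split the neomycin libraries, with a peak in replicate 2 and none in replicate 1. Of 7 members marked in the other 3 libraries, 3 were marked in neomycin replicate 1, against 73.5% of 4393 genes. The nearest peaks of neomycin replicate 1 lay 125 kb from the start of Ern1, 16.6 kb from that of Atf6, 8.85 kb from that of Atf4 and 30.3 kb from that of Hspa5. In the same count for each other library, 3 of 3 members were marked. The shares of genes were then 70.6% for neomycin replicate 2, 95.4% for untreated replicate 1 and 78.0% for untreated replicate 2. The difference of these shares from those of the members was not tested.

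Summed lengths of start site peaks in bp as deposited, given below for each gene, were longer without neomycin at most genes. Both untreated values lay above both neomycin values at 4 of the 9 marked members, Ern1, Atf4, Hspa5 and Dnajb9, against 52.3% of the 11320 genes marked somewhere. Both neomycin values lay above both untreated values at Ddit3, against 2.91% of these genes. At Ddit3 this follows from its start site peaks being in the neomycin libraries alone, and adds nothing to that pattern. The first of these counts is near the share over all genes. These lengths carry the difference in shortest peak between the lists. Relative to the median of each library, the directions were near equal over the 3231 genes marked in all 4 libraries. Both untreated values were then above both neomycin values at 21.0% of them, and the reverse held at 18.8%.

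The sensors comprised Ern1, Eif2ak3 and Atf6. Ern1, on chromosome 11 from 106397620 to 106487796 on the minus strand, encodes the kinase and endonuclease that splices Xbp1 mRNA. The summed length of its start site peaks was 0 and 168 bp with neomycin and 681 and 705 bp without. The single neomycin peak, 244 to 411 bp inside the gene, lay within the span of the longer untreated peaks. That peak ranked at percentile 92.4 of the caller's q in its own list, and the untreated peaks over it at 84.9 and 8.01. The strongest peak of untreated replicate 2 lay elsewhere, at 526 to 777 bp, and ranked at 21.6.

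Eif2ak3, on chromosome 6 from 70844484 to 70905241 on the plus strand, encodes PERK, the kinase of eIF2 alpha. Its peaks summed to 110 and 403 bp with neomycin and 454 and 234 bp without, so the groups overlapped in bp as deposited. Relative to the median of each library they did not, with -0.16 and 0.80 (log2) with neomycin and -0.28 and -0.96 without. All 4 libraries had a peak over the stretch 167 to 276 bp inside the gene. The promoter sequence of Eif2ak3 in the table is counted from a start 31 bp further into the gene than the annotated gene end used here.

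Atf6, on chromosome 1 from 170704457 to 170868585, encodes the sensor that is cut in the Golgi to free a transcription factor. No strand was at hand for it, so its start site was taken as the gene end with peaks in more libraries, at 170868585. Its peaks summed to 0 and 235 bp with neomycin and 215 and 297 bp without. They began 961 bp from that end in neomycin replicate 2, and 887 and 977 bp from it in untreated replicates 1 and 2. Atf6 thus counted as marked by 24 to 114 bp of overlap with the window, while the peak of neomycin replicate 2 ranked at percentile 99.2 of its list.

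The transcription factors comprised a gene marked throughout, Xbp1, and the 1 member marked with neomycin alone, Ddit3. Xbp1, on chromosome 11 from 5520641 to 5525993 on the plus strand, drives genes of folding, secretion and ER-associated degradation. Its peaks summed to 65 and 313 bp with neomycin and 1012 and 277 bp without. Untreated replicate 1 was highest, and untreated replicate 2 lay between the neomycin libraries, so the groups overlapped. Every library had a peak over the stretch 459 to 523 bp inside the gene, which is the whole peak of neomycin replicate 1. The peak over it spanned 364 to 566 bp in neomycin replicate 2, against 434 to 1248 bp and 364 to 640 bp in untreated replicates 1 and 2.

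Atf4, on chromosome 15 from 80255184 to 80257545 on the plus strand, encodes the activator of the amino acid and redox genes of the PERK branch. Its start site peaks summed to 0 and 111 bp with neomycin and 633 and 518 bp without. Neomycin replicate 1 had none, and the peak of neomycin replicate 2 was close to the shortest of its list. Untreated replicate 1 had a further peak 1.76 kb inside the gene, so that its peaks in the gene plus 1 kb summed to 909 bp.

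Ddit3, on chromosome 10 from 127290793 to 127296291 on the plus strand, encodes CHOP, a factor linked to cell death under lasting ER stress. Its start site peaks summed to 48 and 379 bp with neomycin and to 0 and 0 bp without. Neomycin replicate 1 had its peak 704 to 751 bp inside the gene and neomycin replicate 2 had its own at 205 to 583 bp, so the 2 peaks did not overlap each other. Each neomycin library had a further peak in the gene, at 1084 to 1131 bp in replicate 1 and 1367 to 1488 bp in replicate 2, and these did not overlap either. The start site peaks ranked at percentiles 64.8 and 92.4 of their lists, and the further peaks at 53.0 and 0.637. The start site peak and the further peak of neomycin replicate 1 each had the shortest length found in that list, as had 22.1% of its peaks.

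The surroundings of Ddit3 were marked in untreated cells. Ddit3 shares its start window with Mbd6, a methyl-CpG binding domain gene on the minus strand whose start lies 76 bp away, so the peaks cannot be given to either gene. Negative distances being upstream of the Ddit3 start, neomycin replicate 1 had peaks at -2562 to -2434 bp and -2204 to -2157 bp, while neomycin replicate 2 had none within 2.5 kb on that side. Untreated replicate 1 had peaks at -2727 to -2486 bp and -2309 to -1939 bp, and untreated replicate 2 had 1 at -2552 to -2014 bp. Both upstream peaks of neomycin replicate 1 overlapped untreated peaks. These upstream peaks lie inside the Mbd6 gene. With a window of 2.5 kb Ddit3 was marked in all 4 libraries, and its neomycin-only call ended.

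Trib3 and Ppp1r15a are both targets of the PERK branch. Trib3 was the least marked member, and Ppp1r15a was marked at its start site in 2 libraries, as was Ddit3. Trib3, on chromosome 2 from 152337425 to 152344060 on the minus strand, encodes a pseudokinase that restrains CHOP and AKT. Neither the gene nor the 1 kb on each side held a peak in any library. The nearest peaks lay 43.2 and 43.1 kb from the gene with neomycin and 5.06 and 5.01 kb from it without. Ppp1r15a, on chromosome 7 from 45522917 to 45526268 on the minus strand, encodes GADD34, which brings a phosphatase to eIF2 alpha and so ends the translational pause. Its peaks summed to 0 and 120 bp with neomycin and 0 and 276 bp without, so each group had 1 marked library. The neomycin peak lay 816 to 935 bp inside the gene and the untreated peak 44 to 319 bp inside it. The start window is shared with Plekha4, which starts 62 bp away on the other strand.

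The chaperone genes were marked on the gene side of the start with neomycin, and also upstream in untreated cells, in both libraries at Hspa5 and in replicate 1 at Dnajb9. Hspa5, on chromosome 2 from 34772090 to 34776529 on the plus strand, encodes BiP, the main Hsp70 of the ER. Its peaks summed to 0 and 240 bp with neomycin and 415 and 636 bp without, so that neomycin replicate 1 had none. Neomycin replicate 2 had its single peak 139 to 378 bp inside the gene and none upstream. Untreated replicate 1 had start site peaks at -634 to -448 bp and 508 to 735 bp from the start, and untreated replicate 2 at -696 to -463 bp and 288 to 689 bp. The ER stress response element printed above, at -65 to -47, lay under no peak in any library.

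Dnajb9, on chromosome 12 from 44205897 to 44210068 on the minus strand, encodes ERdj4, a BiP co-chaperone and IRE1 target. Its peaks summed to 105 and 212 bp with neomycin and 556 and 488 bp without. All 4 libraries had a peak that began between 45 and 77 bp inside the gene. The neomycin peaks ended at 168 and 288 bp and the untreated ones at 433 and 532 bp. Untreated replicate 1 also had a peak at -678 to -492 bp, upstream of the start. These lengths are as deposited and carry the difference in shortest peak between the lists.

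**Figure D2:**
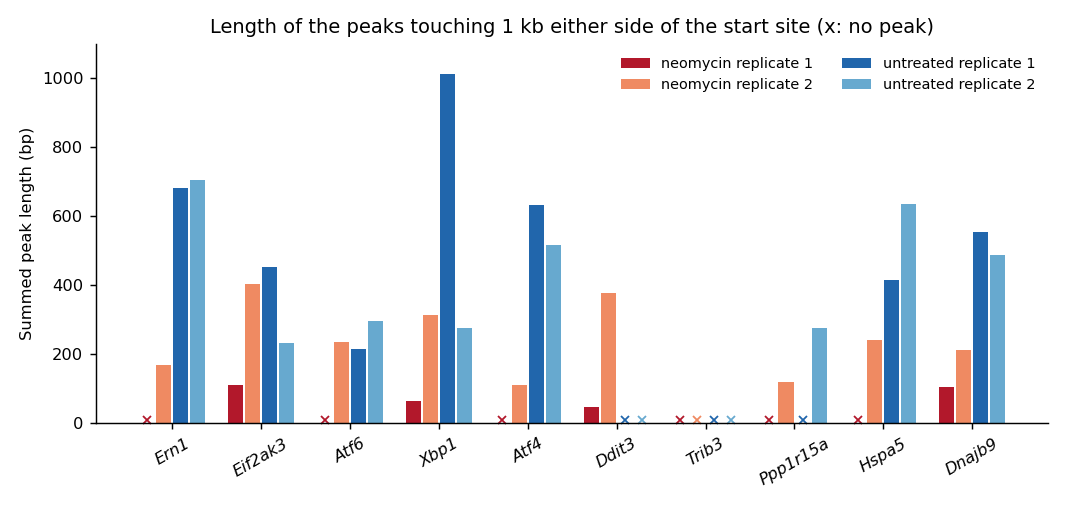
Summed length in bp of the peaks touching 1 kb either side of the start site, 1 bar per library, neomycin left of untreated; a cross marks no peak. Xbp1 in untreated replicate 1 is highest at 1012 bp, and Ddit3 has bars in the neomycin libraries alone.

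The strength of the peaks was read as the rank of the caller's q within each list, with percentile 100 the strongest, and as the pileup, the number of overlapping fragments at the summit. Pileups at the strongest start site peak of the members ran from 5 to 17 with neomycin and from 9 to 21 without, and depend on a depth that is unknown. Xbp1 ranked at percentiles 3.15 and 81.9 with neomycin and 67.7 and 90.0 without, so its peak in neomycin replicate 1 ranked low in that list. Eif2ak3 ranked at 8.2 and 57.9 with neomycin and 37.4 and 33.7 without. Dnajb9 ranked at 64.8 and 18.8 with neomycin and 52.9 and 74.4 without, with its lowest rank in neomycin replicate 2. Hspa5 ranked at 18.8 in neomycin replicate 2, against 67.7 and 45.1 in untreated replicates 1 and 2. Atf4 ranked at 38.5 in neomycin replicate 2, against 41.2 and 92.7 in untreated replicates 1 and 2. Ranks of 1 gene thus varied as widely within a group as between the groups at Xbp1 and Dnajb9, and ranks from lists of unequal length show no change.

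The whole gene added little to the start sites. Over all libraries 41 peaks lay in the 10 genes or within 1 kb of them, and 37 of these touched the start window, 15 of 17 with neomycin and 22 of 24 without. The other 4 were the second peak of Ddit3 in each neomycin library, the far peak of Atf4 and a peak of Hspa5 2.38 kb inside the gene, the last 2 in untreated replicate 1. Each member marked in the gene plus 1 kb was marked at the start site as well. Over all genes, 81.6% and 82.4% of those marked in the gene plus 1 kb were marked at the start with neomycin, and 86.3% and 84.8% without. Counts for the gene plus 1 kb were therefore those of the start site. They were 4 and 9 members with neomycin (39.3% and 37.6% of all genes) and 7 and 8 without (51.0% and 39.7%). In that window 9 members were marked in at least 1 library (59.5% of all genes). Of them 3 were marked in all 4 libraries (33.3% of genes marked somewhere, 19.8% of all), 4 in all but neomycin replicate 1 (9.57%), 1 with neomycin alone (2.62%) and 0 in untreated cells alone (7.57%).

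For the 9 members with a strand, the summit of the strongest start site peak lay inside the gene for every marked member of every library, that is 4 of 4 and 8 of 8 with neomycin and 6 of 6 and 7 of 7 without. Over all marked genes it did so at 79.1% and 78.3% with neomycin and at 85.1% and 85.1% without, so most genes shared this place. Its median position was 352.5 and 317 bp inside the gene with neomycin and 396 and 479 bp without, against medians of 269 and 225 bp with neomycin and 244 and 272 bp without over all marked genes. No start site peak of a member reached upstream of the start in the neomycin libraries (0 of 4 and 0 of 8 members). It did so at Hspa5, Xbp1, Ern1 and Dnajb9 in untreated replicate 1 (4 of 6) and at Hspa5 in untreated replicate 2 (1 of 7). Over all marked genes the shares were 29.5% and 31.4% with neomycin and 33.0% and 30.7% without. The promoter window itself was touched by a peak at 0 of 4 and 0 of 8 members with neomycin, and at 2 of 6 and 3 of 7 without. Among all marked genes it was touched at 21.2% and 26.0% with neomycin and at 39.3% and 38.2% without.

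**Figure D3:**
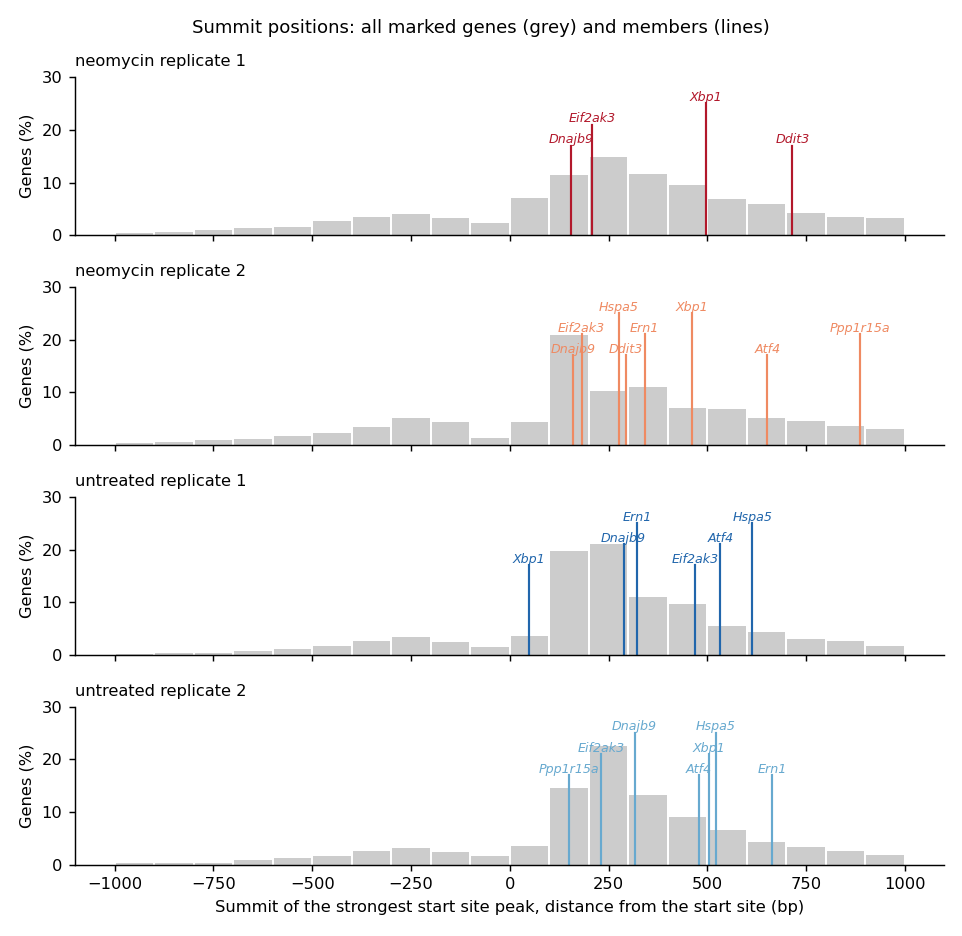
Position of the summit of the strongest start site peak, in bp from the start site, as percent of all marked genes with a strand (grey, bins of 100 bp) and for each member (lines), 1 panel per library, neomycin above untreated. Of the 9 members with a strand, Trib3 has no peak, and the summits of the others all lie inside the gene.

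Domain length was compared across all 3231 start sites marked in all 4 libraries, after centring the log2 length on the median of each library. The medians were 123 and 231 bp with neomycin and 552 and 455 bp without. Of the 9 marked members, 3 entered this comparison. None of the 3231 sites was called longer or shorter with neomycin (0.0% in each direction, limma, adjusted p of 0.05). The lowest limma adjusted p was 0.0552, just above that cutoff, and 306 sites had an unadjusted p below 0.05. On the centred log2 scale the difference of neomycin minus untreated cells was 0.94 for Eif2ak3 (SE 0.63, limma adjusted p 0.698), -0.32 for Xbp1 (SE 0.64, adjusted p 0.927) and -0.23 for Dnajb9 (SE 0.62, adjusted p 0.952). Without centring, which moved the median of all sites to -1.57, it was -0.63 for Eif2ak3 (adjusted p 0.464), -1.89 for Xbp1 (adjusted p 0.0817) and -1.80 for Dnajb9 (adjusted p 0.0611). Eif2ak3 lay at percentile 91.1 of all sites. Its centred values of -0.16 and 0.80 with neomycin stood above the untreated -0.28 and -0.96, as the neomycin values did at 18.8% of all sites. Those of Dnajb9 were -0.23 and -0.12 with neomycin, below the untreated 0.01 and 0.10, as they were at 21.0% of all sites. The groups overlapped at Xbp1. None of the 3 differences was called by this test. Its SE draws on the spread between libraries over all sites, and so is not the spread of 1 gene alone. With 1 library left out, the difference for Eif2ak3 was 1.45 without neomycin replicate 1, 0.49 without neomycin replicate 2, 1.26 without untreated replicate 1 and 0.52 without untreated replicate 2. That for Xbp1 was 0.39 without neomycin replicate 1, -0.97 without neomycin replicate 2, 0.46 without untreated replicate 1 and -1.20 without untreated replicate 2.

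**Figure D4:**
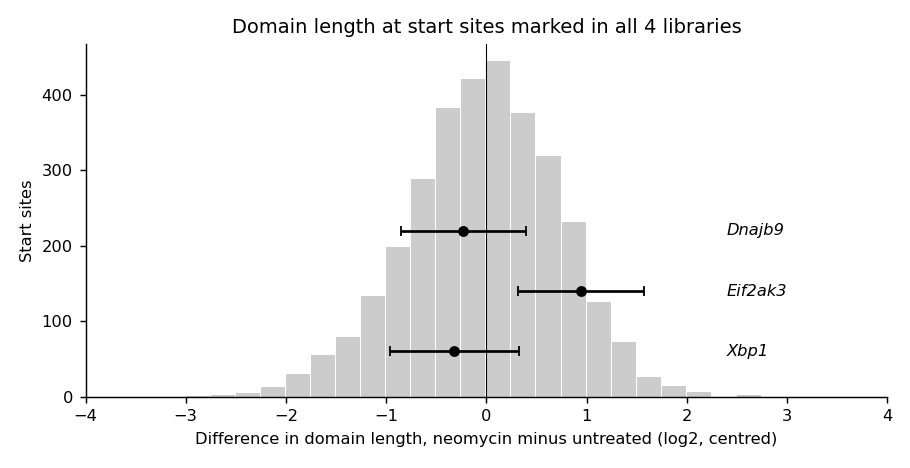
Difference in centred log2 domain length, neomycin minus untreated, for the 3231 start sites marked in all 4 libraries (grey) and for 3 members (points, bars 1 SE). Eif2ak3 lies to the right at 0.94, and Xbp1 and Dnajb9 near 0.

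The rest of the pathway was described by 58 other genes in 4 role groups. A start site peak was found at 42 (72.4%) and 38 (65.5%) of them in the neomycin libraries, and at 50 (86.2%) and 37 (63.8%) in the untreated libraries. The shares of all protein-coding genes were 32.1% and 31.0% with neomycin and 44.0% and 33.7% without. Of the 58, 25 were marked in all 4 libraries (14.8% of all genes) and 6 in none. Of the 52 marked somewhere, none was marked with neomycin alone (2.65% of genes marked somewhere) and 2 were marked in untreated cells alone (8.91%). Ddit3 was thus the 1 gene of all the pathway genes examined with peaks in both neomycin libraries and neither untreated library. Among the pathway genes marked somewhere, 1 such gene is no more than the 2.65% over all genes. Its window is shared with Mbd6, and the call ended with a window of 2.5 kb. The pattern of Ern1, Atf6, Atf4 and Hspa5, with a peak in every library except neomycin replicate 1, was that of 3 of the 58, Traf2, Psat1 and Calr, which were named after their values were seen.

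Of 14 sensors and partners, 5 were marked in all 4 libraries. They included the eIF2 alpha kinases Eif2ak2 and Eif2ak4, Eif2s1, which encodes eIF2 alpha itself, and Rtcb, the ligase that joins the spliced Xbp1 mRNA. At Eif2ak4 the peaks summed to 243 and 384 bp with neomycin and 324 and 296 bp without, and at Eif2s1 to 280 and 110 bp with neomycin and 403 and 609 bp without. Dnajc3, an ER co-chaperone that inhibits PERK, was marked in untreated cells alone, with 0 and 0 bp with neomycin and 557 and 435 bp without. Ern2, the IRE1 form of gut and airway epithelium, had no peak in any library.

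Of 14 targets of ATF4 and CHOP, 6 were marked in all 4 libraries, among them the transcription factors Cebpb and Cebpg, the mTORC1 inhibitor Ddit4 and the oxidase Ero1a. Ddit4 summed to 74 and 417 bp with neomycin and 889 and 1034 bp without. Atf5, a factor of the same family as ATF4, was marked in untreated cells alone, with 0 and 0 bp with neomycin and 560 and 505 bp without. The stress protein gene Nupr1 and Slc7a11, the cystine transporter, had no start site peak in any library.

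Of 14 folding enzymes of the ER, 7 were marked in all 4 libraries and none was unmarked throughout. The 7 included Canx (calnexin), Creld2, Hsp90b1 (GRP94) and Hyou1, an ER chaperone of the Hsp70 family. Hyou1 summed to 100 and 505 bp with neomycin and 227 and 351 bp without, and Hsp90b1 to 60 and 238 bp with neomycin and 493 and 510 bp without. Of 16 genes of translocation and degradation, 7 were marked in all 4, including the derlins Derl1 and Derl2 and Herpud1, which encodes a partner of the degradation complex. Herpud1 summed to 338 and 459 bp with neomycin and 359 and 239 bp without, so its groups overlapped in bp as deposited. Derl3, Edem1 and Sec24d had no start site peak, although the gene plus 1 kb held 1 and 2 peaks with neomycin and 2 and 1 without at Edem1, and 3 and 0 with neomycin and 2 and 0 without at Sec24d.

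**Figure D5:**
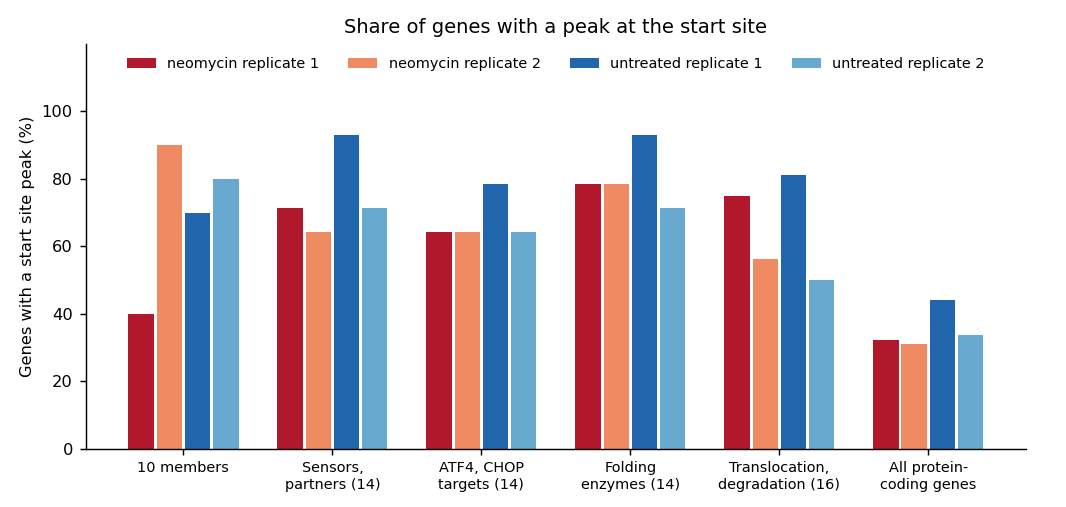
Percent of genes with a start site peak in each library (neomycin left of untreated) for the 10 members, 4 role groups of other pathway genes (number of genes in brackets) and all protein-coding genes. The members stand at 40.0% in neomycin replicate 1 and 90.0% in neomycin replicate 2.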

How the data were processed

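The submitters' processing notes name mm10 and, with no role or setting, CASAVA 1.4, MACS2, Bowtie2 and deepTools. The 2 input libraries were not analysed here. Each deposited list holds the peaks of 1 library. Per the file headers, a peak has a start, end, summit, length and pileup signal, and a fold enrichment ratio and -log10 p-value and q-value from the authors' peak caller. These authors' values were used only as ranks or filters within a list.

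Start sites were the 5′ gene ends by the strand of the RefSeq tables (17492 of 21887 protein-coding genes), otherwise the gene end with peaks in more libraries, then more peak bases, then the lower coordinate. A gene was marked when at least 1 bp of a peak touched 1 kb either side. Summed lengths at sites marked in all 4 libraries were compared with limma 3.58.1 in R 4.3.3, with Benjamini-Hochberg adjustment; the fit and the assignment of peaks were tested on simulated data. Other steps used Python 3.11.15, pandas 2.3.3 and numpy 2.4.6.

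The members and the gene lists were chosen with earlier results of these data known. All 58 other pathway genes matched a symbol or synonym. The text names all members, genes sharing a member's start window, and per role group up to 4 genes of each marking pattern in alphabetical order; 1 gene that this rule names is not reported here. P-values measure the spread between these libraries, which may be technical. Alternatives covered the window, the overlap, the caller's q, list length, the gene end, the fit and each library left out.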

Additional observations from a re-analysis of the deposited data

How the results depend on the processing

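At the start site and in the gene plus 1 kb alike, the members marked in all libraries, with neomycin only and in untreated cells only numbered 3, 1 and 0. They were 0, 0 and 2 (Atf4 and Ern1) with at least 200 bp covered, against 4.18%, 0.172% and 37.5% of genes marked somewhere at their start site. Median start site lengths of marked genes were 106 and 186 bp with neomycin and 431 and 406 bp without. A cutoff of 200 bp thus falls mostly on the neomycin lists. At a -log10 q of 10 or more the 3 counts were 0, 0 and 1 (Xbp1), against 0.0%, 0.0177% and 23.6%. With the same number of peaks from each list they were 1, 1 and 0, against 20.7%, 3.52% and 10.3%. With a start window of 2.5 kb, 0 members were neomycin only. With 1 library left out, they were 3 to 7, 1 to 1 and 0 to 4: without neomycin replicate 1, 7 members were marked in all libraries (40.2% of genes marked somewhere), and without neomycin replicate 2, 4 were untreated only (19.8%). The gene end with peaks in more libraries, and genes with a strand alone, an alternative chosen after seeing the data, left the 3 start site counts as they were.

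For domain length, limma called 0 sites longer and 0 shorter. Without centring, 893 were shorter and the median of all sites moved to -1.57. With sites marked in at least 2 libraries, 16 were longer and 2 shorter, and with 1 library left out 0 to 117 were longer and 0 to 173 shorter (46 and 86 without neomycin replicate 1, 117 and 173 without neomycin replicate 2). The lone library of a group is then assumed to vary like the others. The replicate block called 0 and 0; same-numbered libraries did not deviate together (r = -0.024 across 3231 sites), and the numbers are not known to pair the libraries. No site was marked in all 4 libraries at a -log10 q of 10 or more, so that setting gave no length comparison. The sign turned for Xbp1 with sites marked in at least 2 libraries (0.036), and without neomycin replicate 1 or untreated replicate 1 (0.385 and 0.458; range -1.202 to 0.458 with 1 library left out), for Dnajb9 with lists of equal length (0.123) and sites marked in at least 2 libraries (0.125), and for Eif2ak3 without centring (-0.63). None of the 3 was called under any setting. The cause of these changes was not tested. Unknown depth limits what a missing peak shows: it was not called, and absence of the mark is not shown.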

Other observations

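The gene beside Trib3 was marked where Trib3 was not. Rbck1, a subunit of a linear ubiquitin ligase on chromosome 2 from 152316334 to 152332663, had no start site peak with neomycin and 316 and 320 bp of peaks without. This pattern was that of 8.91% of genes marked somewhere. Rbck1 was singled out after its values were seen, and it holds the untreated peaks that lie nearest to Trib3. Mars1, the methionyl-tRNA synthetase gene that overlaps the far end of Ddit3, was also singled out afterwards. It was marked in all 4 libraries, with 130 and 194 bp with neomycin and 251 and 236 bp without.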
